A study of Mus musculus with 24 samples.

Results

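Monoamine neurons take their transmitter back from outside the cell, load it into vesicles, and break down what stays in the cytosol. The 8 genes described here encode steps of that cycle: the plasma membrane carriers Slc6a4, Slc22a3 and Slc29a4, the vesicular carrier Slc18a2, the monoamine oxidases Maoa and Maob, the aldehyde dehydrogenase Aldh2 and the vesicle electron carrier Cyb561. They were chosen by name from the 24062 genes of the count files, and all 8 were present. RNA came from mouse brain at postnatal day 9, from the region just behind the thalamus without cortex. There were 4 groups: Celf6 knockout (KO) and wild-type (WT) translating ribosome affinity purification (TRAP), with 5 libraries each, and KO and WT total RNA (input), with 5 and 3 libraries. Its product, CELF6, binds RNA. TRAP recovers RNA on ribosomes tagged in 1 cell type, here through a published allele specific to serotonin cells. The labels give that allele for the TRAP preparation as a whole, so KO and WT share it, and they name no strain, sex or promoter.

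The 19 libraries used held 3390423 to 6861963 counts. Counts of WT input 2 and 3 agreed as closely as those of repeat runs. Their chi-square per gene was 1.34, below the 1.37 to 2.58 of repeat runs and the 24.7 to 90.3 of other pairs within a group. These libraries, summed as WT input 2/3, count as 1 sample. Celf6, the deleted gene, had 115, 21.4, 56.5, 26.9 and 36.3 CPM in KO TRAP libraries 1 to 5, against 149.7, 188, 171, 116 and 85.2 CPM in WT TRAP libraries 1 to 5. In input it had 4.79 to 21.98 CPM in KO, against 33.1, 15.4 and 104 CPM in WT input 1, 2/3 and 5. The library labelled KO TRAP 1 thus lay within the WT TRAP range of Celf6, and the library labelled WT input 2/3 within the KO input range. The counts cover the whole gene, so a transcript that lacks only a deleted part would still be counted. Sex-linked RNAs of both kinds occurred together in the library labelled KO TRAP 1 (Xist 71.2 and Kdm5d 17.4 CPM) and in WT input 5 (Xist 37.0 and Eif2s3y 6.62 CPM). The libraries fall into sequencing runs 1 and 2, and in run 2 WT input is WT input 5 alone. Of 9 serotonergic neuron markers, 8 were higher in TRAP (edgeR), and their summed level was 2651 to 6272 CPM in TRAP libraries, against 129 to 237 CPM in input libraries.

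The serotonin transporter takes released serotonin back into the neuron that released it and is the hallmark carrier of serotonin cells. The vesicular monoamine transporter then packs cytosolic serotonin, dopamine or noradrenaline into vesicles, using the proton gradient across the vesicle membrane. Organic cation and equilibrative carriers of low affinity can also move monoamines across the plasma membrane, in neurons and in glia. Monoamine oxidases sit on the outer mitochondrial membrane and turn monoamines into aldehydes, which aldehyde dehydrogenases oxidise further.

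All 8 genes were tested in every comparison. Against input, 5 of the 8 were higher in TRAP and 0 were lower by edgeR's quasi-likelihood test at an adjusted p below 0.05. Among all 14261 genes tested, 4.72% passed in either direction and 2.41% were higher in TRAP. The 8 genes had a median log2 fold change of 2.19, beside 0.025 for all genes tested. The genes that passed were Slc6a4, Slc18a2, Slc22a3, Maoa and Maob, while Slc29a4, Aldh2 and Cyb561 did not pass. For 4 of the 8 genes every TRAP library lay above every input library, which held for 0.442% of all genes tested. In bulk RNA, a larger share of cells that express a gene and more of its RNA per cell cannot be told apart.

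**Figure D1:**
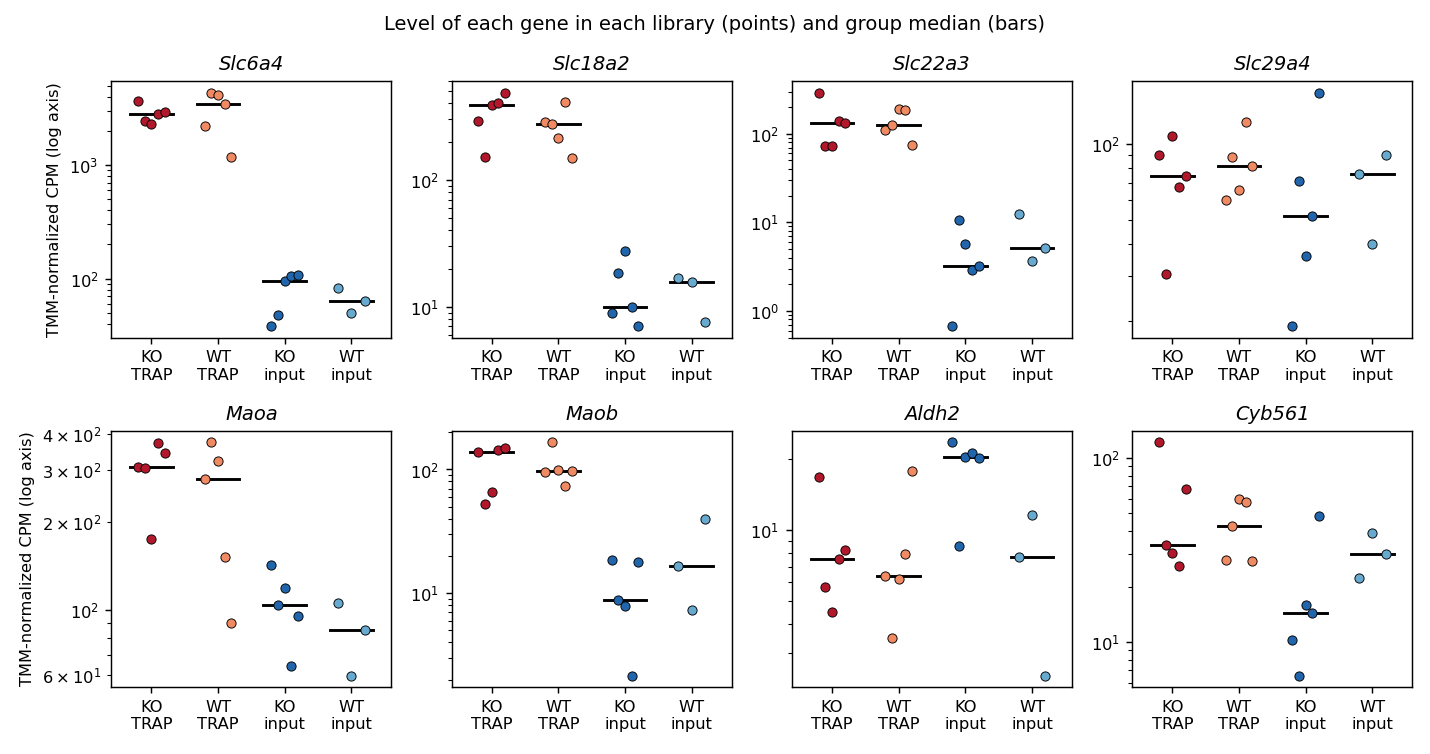
Each panel plots 1 gene's level in TMM-normalized counts per 1000000 (log axis) for each library (points) in KO TRAP, WT TRAP, KO input and WT input, with the group median as a bar. Slc6a4, Slc18a2, Slc22a3 and Maob show no overlap of the 10 TRAP with the 8 input libraries, whereas Maoa (by 1 TRAP library), Slc29a4, Aldh2 and Cyb561 overlap.

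Slc6a4 encodes the serotonin transporter and lies on chromosome 11 at 76998597-77032343 (mm10, plus strand). It had 3704, 2434, 2303, 2807 and 2970.4 CPM in KO TRAP libraries 1 to 5, and 2209, 4367, 4135, 3478 and 1181 CPM in WT TRAP libraries 1 to 5. In input it had 38.1, 47.2, 95.7, 106 and 107 CPM in KO libraries 1 to 5, and 82.5, 49.99 and 63.2 CPM in WT libraries 1, 2/3 and 5. The lowest TRAP library, WT TRAP 5, was still about an order of magnitude above the highest input library. The log2 fold change, TRAP over input, was 5.37 ± 0.32 (SE), or 41.4-fold with a 95% interval of 26.4 to 65.0. Its edgeR adjusted p was 1.26e-11, which ranked 1 among the genes tested.

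Slc18a2 encodes the vesicular monoamine transporter of neurons and lies on chromosome 19 at 59260878-59296012 (plus strand). It had 290.1, 152, 388, 404 and 486 CPM in KO TRAP libraries 1 to 5, and 284, 278, 215, 413 and 148 CPM in WT TRAP libraries 1 to 5. Input levels were 8.93, 18.3, 27.5, 10.1 and 7.05 CPM in KO, and 16.9, 15.8 and 7.53 CPM in WT libraries 1, 2/3 and 5. All TRAP libraries were above all input libraries, with WT TRAP 5 and KO TRAP 2 the lowest of the TRAP libraries. TRAP over input gave a log2 fold change of 4.48 ± 0.35, with an edgeR adjusted p of 1.36e-09. Its size differed between runs, at 3.94 in run 1 and 5.31 in run 2 as the TRAP mean log2 CPM minus the input mean. A dependence on the run was not tested, and the input libraries of run 2 held only 24 to 42 counts of Slc18a2.

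Slc22a3 encodes an organic cation transporter that carries monoamines at low affinity, and lies on chromosome 17 at 12419974-12507704 (minus strand). It had 291, 72.5, 73.1, 138 and 134 CPM in KO TRAP libraries 1 to 5, and 111, 127, 191, 188 and 74.7 CPM in WT TRAP libraries 1 to 5. In total RNA it had 0.674, 10.6, 5.76, 2.87 and 3.23 CPM in KO, and 12.6, 3.69 and 5.12 CPM in WT libraries 1, 2/3 and 5. The groups did not overlap, although the input levels rest on 4 to 73 counts a library, against 315 to 1559 counts in TRAP. The log2 fold change was 4.64 ± 0.46 (25.0-fold, 95% interval 12.9 to 48.4), with an edgeR adjusted p of 1.77e-07. The library labelled KO TRAP 1 was the highest, and without it the log2 fold change was 4.40 (adjusted p = 4.40e-07). The noncoding locus C030013G03Rik lies within the span of Slc22a3 but shares no exon bases with it in the annotation of the files.

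Slc29a4 encodes the plasma membrane monoamine transporter, a carrier of low affinity and high capacity, and lies on chromosome 5 at 142702101-142722490 (plus strand). It had 90.1, 30.7, 107, 67.6 and 74.7 CPM in KO TRAP libraries 1 to 5, and 60.04, 88.5, 65.9, 122 and 81.6 CPM in WT TRAP libraries 1 to 5. Input levels were 19.0, 71.2, 36.0, 51.9 and 159 CPM in KO, and 76.0, 40.2 and 90.0 CPM in WT libraries 1, 2/3 and 5. The groups overlapped, and KO input 5 held the highest level of all libraries. TRAP over input gave a log2 fold change of 0.27 ± 0.31 (95% interval -0.38 to 0.91; edgeR adjusted p = 0.712). In run 1 alone the TRAP mean log2 CPM minus the input mean was 0.60, and in run 2 alone -0.10.

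Maoa, which encodes the oxidase that prefers serotonin and noradrenaline, lies on chromosome X at 16619698-16687812 (plus strand). It had 307, 307, 175, 373 and 345 CPM in KO TRAP libraries 1 to 5, and 281, 374, 324, 151 and 90.4 CPM in WT TRAP libraries 1 to 5. In input it had 142, 104, 119, 64.4 and 95.5 CPM in KO, and 106, 59.6 and 85.8 CPM in WT libraries 1, 2/3 and 5. WT TRAP 5 overlapped the input range, and the other 9 TRAP libraries were above all input libraries. TRAP over input gave a log2 fold change of 1.54 ± 0.25, or 2.90-fold with a 95% interval of 2.03 to 4.15 (edgeR adjusted p = 0.000287).

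Maob, the other oxidase gene, lies tail to tail with Maoa on chromosome X, at 16709281-16817366 (minus strand), with 21469 bases between them. Its product prefers phenylethylamine and is the oxidase known from adult serotonin neurons and from astrocytes. Maob had 138, 52.9, 65.6, 143 and 150.5 CPM in KO TRAP libraries 1 to 5, and 94.9, 165, 98.4, 72.9 and 97.8 CPM in WT TRAP libraries 1 to 5. Input levels were 18.5, 8.73, 7.89, 2.15 and 17.9 CPM in KO, and 16.7, 7.38 and 40.0 CPM in WT libraries 1, 2/3 and 5. TRAP and input did not overlap, and the highest input library was WT input 5. The log2 fold change was 2.84 ± 0.40, or 7.15-fold with a 95% interval of 4.06 to 12.6 (edgeR adjusted p = 4.64e-05). Without the libraries labelled KO TRAP 1 and WT input 5, both of which mix sex-linked RNA, the log2 fold change was 3.13 for Maob and 1.68 for Maoa, and both stayed below an adjusted p of 0.05 (2.01e-04 and 0.00174).

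Aldh2, which encodes the mitochondrial aldehyde dehydrogenase, lies on chromosome 5 at 121567687-121593824 (minus strand). It had 16.8, 5.71, 4.49, 7.53 and 8.27 CPM in KO TRAP libraries 1 to 5, and 6.41, 3.47, 6.20, 7.89 and 17.8 CPM in WT TRAP libraries 1 to 5. In total RNA it had 23.6, 8.59, 20.5, 21.3 and 20.3 CPM in KO, and 7.67, 11.6 and 2.41 CPM in WT libraries 1, 2/3 and 5. The TRAP range lay within the WT input range apart from the libraries labelled KO TRAP 1 and WT TRAP 5, and 4 of 5 KO input libraries were above every TRAP library. The log2 fold change was -0.51 ± 0.50 (95% interval -1.54 to 0.53; edgeR adjusted p = 0.646), and within runs 1 and 2 the difference was -0.93 and 0.39. With 8 to 140 counts a library, Aldh2 had the widest interval of the 8 genes.

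Cyb561, which encodes the cytochrome that passes electrons into dense-core vesicles to regenerate ascorbate, lies on chromosome 11 at 105933704-105944147 (minus strand). It had 121, 33.5, 30.5, 25.98 and 67.5 CPM in KO TRAP libraries 1 to 5, and 28.0, 42.7, 59.8, 57.4 and 27.5 CPM in WT TRAP libraries 1 to 5. Input levels were 10.3, 6.55, 15.8, 14.4 and 48.5 CPM in KO, and 22.1, 39.2 and 30.1 CPM in WT libraries 1, 2/3 and 5. The groups overlapped, and KO input 5 stood above the other KO input libraries. TRAP over input gave a log2 fold change of 1.07 ± 0.40 (95% interval 0.25 to 1.88), with an edgeR adjusted p of 0.129. Without KO input 5 it was 1.38 (adjusted p = 0.0337), and without the library labelled KO TRAP 1 it was 0.77 (adjusted p = 0.244).

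An exact 2-sided permutation test of mean log2 CPM over all splits of the 10 TRAP and 8 input libraries gave 4.57e-05, the smallest p it allows, for Slc6a4, Slc18a2, Slc22a3 and Maob. The same exact test gave 0.000457 for Maoa, 0.0101 for Cyb561, 0.138 for Aldh2 and 0.296 for Slc29a4. These are single-gene values without adjustment over genes. The splits did not keep to sequencing runs, to genotype or to the pairs of TRAP and input from the same brain. Within runs 1 and 2 the TRAP mean log2 CPM minus the input mean was 5.67 and 4.87 for Slc6a4, 4.54 and 4.88 for Slc22a3, 3.07 and 2.75 for Maob, 1.55 and 1.32 for Maoa, and 1.37 and 0.53 for Cyb561.

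The RefSeq promoter table (GRCm38.p6, 250 bases before to 50 after each gene start) held 5 of the 8 genes: Slc6a4, Slc18a2, Slc22a3, Slc29a4 and Maoa. A set of 8 short motifs, chosen with the results known, was searched on both strands, and their matches are descriptions of letters only. TGACG, the core of the cyclic AMP response element, was in 4 of these 5 windows and in 20.9% of all 32544 promoter windows. The 4 were Slc6a4, Slc18a2, Slc22a3 and Maoa, the genes of the 5 that passed the test in TRAP against input. They are shown 5′ to 3′ on the strand of the gene, with TGACG in capitals, because these 4 windows hold the motif. The windows are chr11:76998484-76998513 (+), chr19:59260862-59260891 (+), chr17:12507767-12507796 (−) and chrX:16619477-16619506 (+).
Slc6a4: tcggtctcaaagTGACGcaaaaattcttgc
Slc18a2: cagcgctgtccgTGACGtcagagccggact
Slc22a3: ggaggaatgtgaTGACGcaggtgcaggtgc
Maoa: ttccgctccccgTGACGaatccctgttgcc

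The match began 101 bases upstream of the start for Slc6a4, 4 for Slc18a2, 80 for Slc22a3 and 209 for Maoa. In Slc18a2 alone it was part of the full palindrome TGACGTCA, which was in 1.8% of all windows. The GC box letters GGGCGG were in the windows of Slc29a4, Slc6a4, Slc18a2 and Maoa and in 35.9% of all windows, with 9 matches in Slc29a4, some of them overlapping. The Slc29a4 match nearest to its start, at chr5:142702080-142702109 (+), is shown with GGGCGG in capitals.
Slc29a4: agctaggagggcGGGCGGggcgtgggccgg

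Of the other motifs searched, the ETS core CCGGAA was found only in the Slc22a3 window of these 5 and in 15.0% of all windows. AGATAA was found only in that of Slc18a2 and in 11.2% of all. CAGGTG was found only in that of Slc22a3 and in 20.3% of all. The last motifs, CACGTG with 7.17% of all windows and GGAAGT with 23.7%, were found in none of the 5.

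Taken within each genotype, 5 of the 8 genes were higher in KO TRAP than in KO input, and 3 of the 8 were higher in WT TRAP than in WT input. Among all genes tested, 0.75% and 0.407% were higher in these comparisons. Slc6a4 had a log2 fold change of 5.18 ± 0.37 within KO and 5.56 ± 0.48 within WT, Slc18a2 of 4.62 ± 0.42 and 4.34 ± 0.52, and Slc22a3 of 4.95 ± 0.57 and 4.34 ± 0.69. All 6 of these values passed, with edgeR adjusted p of 0.000925 or lower. Maoa had 1.59 ± 0.32 within KO (adjusted p = 0.00663) and 1.49 ± 0.38 within WT (adjusted p = 0.0710). Maob had 3.26 ± 0.51 within KO (adjusted p = 3.20e-04) and 2.42 ± 0.60 within WT (adjusted p = 0.0536). WT input had 3 samples and KO input 5, and DESeq2 called both genes within WT (adjusted p = 0.00585 for Maoa and 0.00108 for Maob). Both genes also passed within WT by edgeR with library totals only, without the expression filter, and with WT input 2 and 3 kept apart. The last of these counts separately the libraries treated here as 1 sample. Of 26 alternatives, 20 left each gene uncalled within WT, with edgeR adjusted p of up to 0.287 for Maoa and 0.296 for Maob. Cyb561 had 1.65 within KO and did not pass (edgeR adjusted p = 0.122). It passed by DESeq2 (adjusted p = 0.0335), by edgeR without the expression filter (0.0399), and without KO input 5 (2.25, with 0.0272). In the other 23 of 26 alternatives it did not pass.

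**Figure D2:**
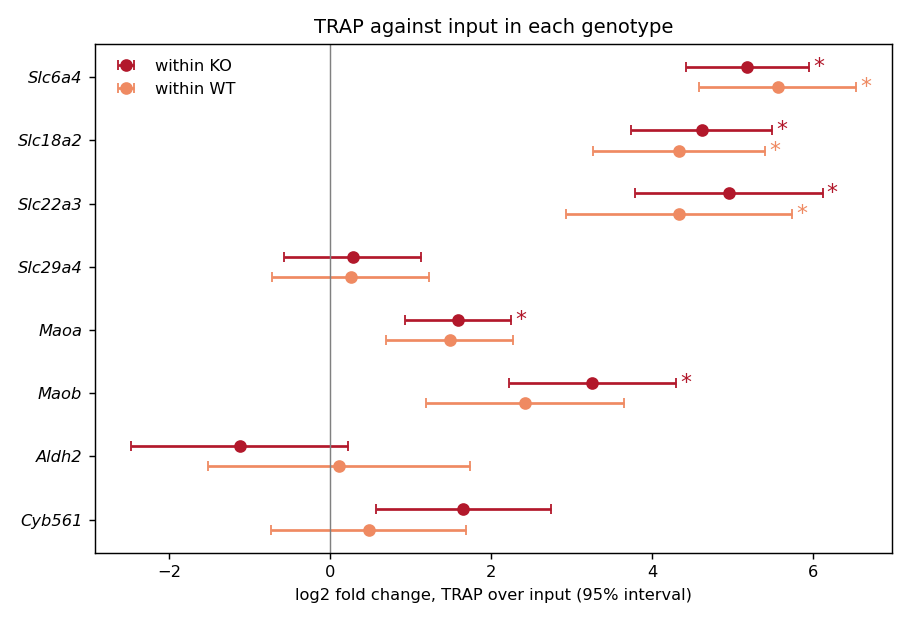
Points give the log2 fold change of TRAP over input within KO and within WT for each gene, with 95% intervals, and an asterisk marks an edgeR adjusted p below 0.05. The 3 carriers Slc6a4, Slc18a2 and Slc22a3 lie between 4.34 and 5.56 in both genotypes. The intervals of Slc29a4 and Aldh2 span 0 in both genotypes, and so does that of Cyb561 within WT (0.48, -0.73 to 1.69).

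The test of the difference between these differences called 0 of 14261 genes (0% by edgeR; 554 had an unadjusted p below 0.05, and DESeq2 called 3). Among the 8 genes the interaction ran from -1.23 ± 1.04 for Aldh2 to 1.18 ± 0.78 for Cyb561, each with an edgeR adjusted p of 1.00. Maob had 0.84 ± 0.72, and its 95% interval of -0.65 to 2.32 includes sizeable differences in either direction. Between runs 1 and 2 the interaction had opposite signs for 4 of the 8 genes, as mean log2 CPM: -0.52 and 3.37 for Maob, -0.95 and 1.74 for Maoa, -0.014 and 0.69 for Slc18a2, and 0.51 and -0.50 for Slc29a4. Within WT alone, TRAP minus input was 3.33 and 1.07 for Maob, 2.02 and 0.45 for Maoa, and -0.82 and 2.14 for Aldh2 in runs 1 and 2. Without WT input 5 the interaction was 0.18 for Maob and -0.64 for Aldh2. Calls within KO that were missed within WT, as for Maoa and Maob, are therefore not shown to differ between genotypes.

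Related genes from the same pathways mostly did not pass in TRAP against input, which also held for all genes tested, of which 4.72% passed. Of 7 other monoamine carriers tested, 1 was lower in TRAP and 0 were higher, with a median log2 fold change of -0.87. The lower gene was Slc6a2, the noradrenaline transporter (-2.58 ± 0.55; edgeR adjusted p = 0.00568), which averaged 4.11 ± 3.68 and 10.5 ± 9.01 CPM in KO and WT TRAP (SD, n = 5 each), against 24.4 ± 8.38 and 55.4 ± 22.2 CPM in KO and WT input (SD, n = 5 and 3). The equilibrative nucleoside transporter genes Slc29a3 and Slc29a2 had -0.73 ± 0.44 and -0.87 ± 0.54 without passing. Of 10 other amine and aldehyde metabolising enzyme genes tested, none passed by edgeR (3 had an unadjusted p below 0.05), with a median of -0.33. The aldehyde dehydrogenase genes Aldh1a1 (-1.85 ± 0.56) and Aldh3a2 (0.77 ± 0.26) and the aldehyde reductase gene Akr1a1 (0.43 ± 0.18) had edgeR adjusted p of 0.0560, 0.0898 and 0.187. DESeq2 called Aldh1a1 (adjusted p = 0.0133) and Aldh3a2 (0.0355). In other edgeR fits Aldh1a1 passed without the expression filter (adjusted p = 0.0204) and with WT input 2 and 3 kept apart (0.0285). It also passed without KO TRAP 2, KO input 1 or KO input 2 (edgeR adjusted p of 0.0388 to 0.0402). Aldh3a2 passed by edgeR without KO input 1 (adjusted p = 0.0324).

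Of 10 genes for partners of the serotonin transporter, 1 was higher in TRAP, Tgfb1i1, which encodes a focal adhesion adaptor (1.33 ± 0.27; edgeR adjusted p = 0.00406). Stx1a, the syntaxin of the release machinery, had 0.81 ± 0.26 and Nos1, neuronal nitric oxide synthase, -1.26 ± 0.42, and neither passed by edgeR (adjusted p = 0.0685 and 0.0809). DESeq2 called both (adjusted p = 0.0195 for Stx1a and 0.0211 for Nos1), and Stx1a passed in 3 of the other edgeR fits (adjusted p of 0.0353 to 0.0416). None of the 7 genes of the cytochrome b561 family and ascorbate supply, the 16 of the vesicular proton pump and the 4 regulators of monoamine oxidase genes passed by edgeR, with medians of 0.048, 0.15 and 0.46, and 3, 1 and 0 of them had an unadjusted p below 0.05. In the first of these groups DESeq2 called Cybrd1 (-2.18 ± 0.68 by edgeR, adjusted p = 0.0628; DESeq2 adjusted p = 0.00798), which encodes a ferric reductase. In other edgeR fits Cybrd1 passed without the expression filter (adjusted p = 0.00231), without KO TRAP 5 (0.0362) and without WT input 5 (0.0131). It also passed by edgeR without both libraries that mix sex-linked RNA (adjusted p = 0.0200).

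Astrocytes also express Maob, Aldh2 and Slc22a3. The 9 astrocyte markers summed to 227 to 1003 CPM in TRAP libraries, against 809 to 1531 CPM in input libraries, and all 9 were detected in both. In TRAP 3 of the 9 were lower and 0 were higher (edgeR; median -1.23), among them Sox9 at -2.04 ± 0.35. The share of astrocyte RNA in the level of Maob, Aldh2 or Slc22a3 was not tested.

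**Figure D3:**
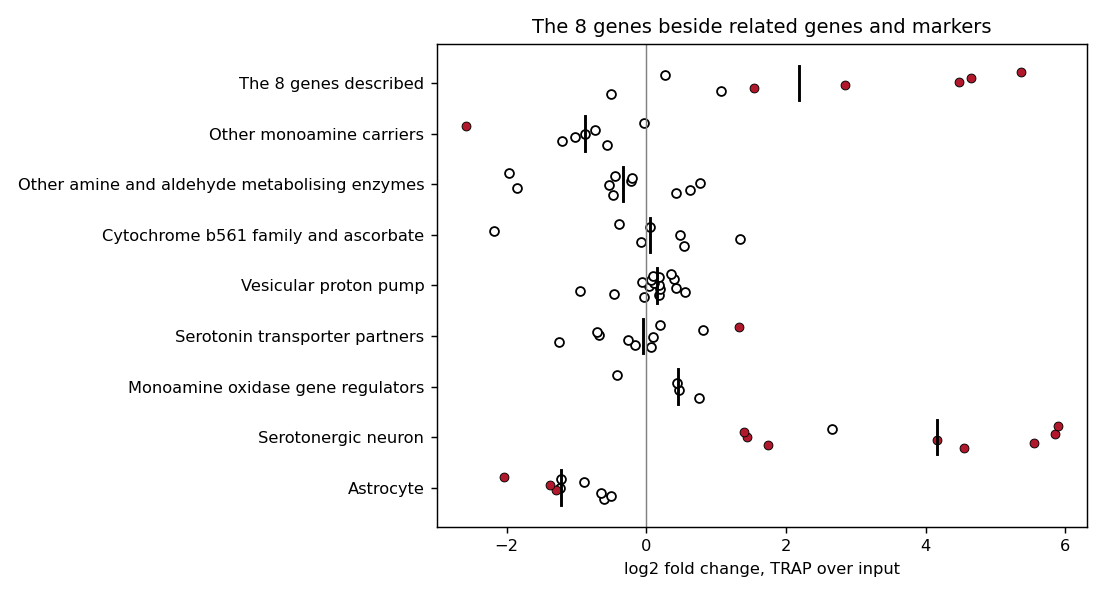
Each point is the log2 fold change of 1 gene, TRAP over input, in the 8 genes described, 6 groups of related genes and 2 marker lists, with filled points for an edgeR adjusted p below 0.05 and bars for medians. The medians are 2.19 for the 8 genes, between -0.87 and 0.46 for the 6 related groups, 4.16 for serotonergic neuron markers and -1.23 for astrocyte markers.

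Levels were compared between genes per length of exon, as reads per kilobase per 1000000 counts (RPKM), over the 10 TRAP and the 8 input libraries. In TRAP the order of median RPKM was Slc6a4 (1052), Slc18a2 (75.4), Maoa (73.8), Maob (40.7), Slc22a3 (37.3), Slc29a4 (28.0), Cyb561 (15.4) and Aldh2 (3.16). Slc6a4 exceeded Slc18a2 in 10 of 10 TRAP libraries, by 3.76 ± 0.63 on the log2 scale (mean ± SD), and Cyb561 exceeded Aldh2 in 10 of 10, by 2.38 ± 0.86. Both had an exact sign-flip permutation p of 0.00195 and, over the 14 pairs of neighbours tested, an adjusted p of 0.0137. Neighbours were picked by median RPKM in the same libraries, here and in input. These p thus describe how steady a difference was between libraries, and cannot cover a bias of a gene that all libraries share. The 5 other pairs of neighbours in TRAP had adjusted p of 0.0930 to 0.462 in the same exact test, and their order is not settled by these libraries.

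In input the order was Slc6a4 (26.5), Maoa (23.98), Slc29a4 (22.1), Cyb561 (7.66), Aldh2 (7.21), Maob (5.28), Slc18a2 (3.39) and Slc22a3 (1.26), again as median RPKM. The first 3 genes of that order differed by less than their spread between libraries. Of the neighbours in input, Slc18a2 exceeded Slc22a3 in 8 of 8 libraries (exact permutation, adjusted p = 0.0365), and Slc29a4 exceeded Cyb561 in 7 of 8 (adjusted p = 0.0547). The remaining 5 pairs had adjusted p of 0.547 to 0.781.

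Ratios of 2 genes within a library do not depend on its scaling. The ratio of Maoa to Maob in RPKM was 1.29 to 3.36 in KO TRAP and 0.536 to 1.91 in WT TRAP, against 3.09 to 17.3 in KO input and 1.24 to 4.68 in WT input. The TRAP and input ranges overlapped, with medians of 1.42 in TRAP and 4.57 in input. On the log2 scale the difference was -1.76, with an exact permutation p of 0.00114 and an adjusted p of 0.00190 over the 5 ratios examined. Within runs 1 and 2 it was -1.63 and -1.92. Maob thus made up more of the oxidase RNA in TRAP than in input.

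The ratio of Slc22a3 to Slc29a4 was 0.544 to 2.58 in TRAP, against 0.0162 to 0.132 in input, without overlap. Its log2 difference was 4.54, with an exact permutation p of 4.57e-05, the smallest possible, and an adjusted p of 1.14e-04. Slc6a4 to Maoa was 11.4 to 34.8 in TRAP, against 0.406 to 2.50 in input (log2 difference 3.91; same exact permutation p and adjusted p). Within runs 1 and 2 the log2 differences were 4.14 and 5.24 for Slc22a3 to Slc29a4, and 4.21 and 3.41 for Slc6a4 to Maoa. Slc6a4 to Slc18a2 had medians of 11.4 in TRAP and 6.33 in input, and the ranges overlapped (log2 difference 0.84; exact permutation p = 0.0364, adjusted p = 0.0455). That difference did not hold within both runs. In run 1 the ratio was 8.22 to 26.6 in TRAP, against 3.56 to 6.75 in input (log2 difference 1.73), and in run 2 it was 8.46 to 11.7 in TRAP, against 11.6 to 21.1 in input (log2 difference -0.60). Slc6a4 to Tph2, the gene of the enzyme that starts serotonin synthesis in neurons, had medians of 1.499 in TRAP and 2.86 in input and did not pass (log2 difference -0.57; exact permutation p = 0.153, adjusted p = 0.153), with -0.19 and -1.18 within runs 1 and 2.

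**Figure D4:**
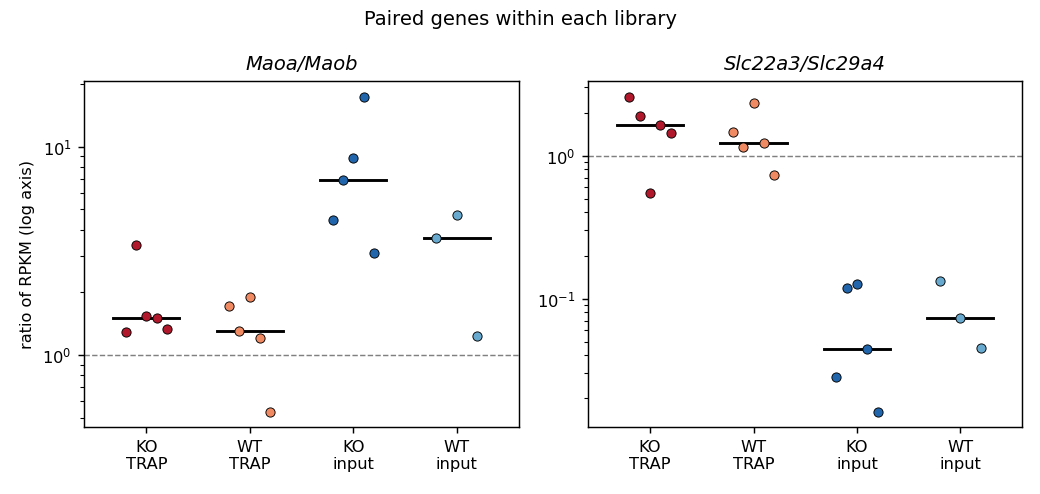
Points give the ratio of RPKM of 2 genes in each library (log axis) by group, with group medians as bars and a dashed line at a ratio of 1. Maoa to Maob has medians of 1.51, 1.31, 6.91 and 3.65 in KO TRAP, WT TRAP, KO input and WT input, and Slc22a3 to Slc29a4 has 1.63, 1.22, 0.0441 and 0.0732.

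The study set KO against WT to find changes that follow loss of Celf6. In TRAP, none of the 8 genes passed or had an unadjusted p below 0.05, and edgeR called 0 of 12204 genes (0%; 455 had an unadjusted p below 0.05, and DESeq2 called 1). Celf6 itself was not called, at a log2 fold change of -1.52 ± 0.38 (edgeR, unadjusted p = 7.61e-04, ranked 1, adjusted p = 0.9992). The absence of a call for the 8 genes therefore does not show that they are unchanged. The KO and WT ranges overlapped for all 8 genes in TRAP, where 0.721% of the genes tested had ranges that did not overlap. The log2 fold changes of the 8 genes, KO over WT, ran from -0.16 ± 0.36 for Slc29a4 to 0.41 ± 0.35 for Maoa, with edgeR adjusted p of 0.9992 to 1.00. Slc6a4 averaged 2844 ± 552 CPM in KO TRAP and 3074 ± 1350 CPM in WT TRAP (SD, n = 5 each), a log2 fold change of -0.097 ± 0.29. Its 95% interval of -0.70 to 0.51, or 0.614- to 1.42-fold, leaves room for changes of that size. Slc18a2 had 0.31 ± 0.31 (95% interval -0.34 to 0.97) and Maob 0.0079 ± 0.36 (95% interval -0.74 to 0.76). Exact permutation p over the libraries of TRAP ran from 0.302 to 0.992, where the smallest possible is 0.00794.

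The direction of these small values was not stable between sequencing runs 1 and 2. Maoa differed by -0.35 and 1.61 in mean log2 CPM, Maob by -0.56 and 0.79, Slc6a4 by -0.31 and 0.51, Slc22a3 by -0.27 and 0.20 and Aldh2 by 0.52 and -0.57. For Slc18a2 the within-run values were 0.0048 and 0.84, for Cyb561 0.26 and 0.075, and for Slc29a4 -0.079 and -0.49. Without the library labelled KO TRAP 1, the log2 fold change was -0.52 for Slc22a3, -0.19 for Cyb561, -0.36 for Aldh2 and -0.19 for Maob, and none of the 8 genes passed.

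In input, none of the 8 genes passed or had an unadjusted p below 0.05 either, and edgeR called 0 of 13036 genes (0%; 376 had an unadjusted p below 0.05, and DESeq2 called 0). Celf6 was not called there either, at a log2 fold change of -1.56 ± 0.66 (edgeR, unadjusted p = 0.0314, adjusted p = 0.9996). All 8 ranges overlapped, and 2.24% of the genes tested had ranges that did not. Aldh2 averaged 18.8 ± 5.88 CPM in KO input (SD, n = 5) and 7.22 ± 4.601 CPM in WT input (SD, n = 3). That was the largest log2 fold change of the 8, at 1.49 ± 0.75 (95% interval -0.12 to 3.10; edgeR, unadjusted p = 0.0669 and adjusted p = 1.00). Only KO input 2, at 8.59 CPM, lay below the highest WT library, WT input 2/3 at 11.6 CPM. The exact permutation p was 0.0714, where the smallest possible with 5 and 3 libraries is 0.0357. Within runs 1 and 2 the difference was 0.75 and 2.93, and in run 2 the lone WT library was WT input 5, which had the lowest Aldh2 level. Without WT input 5 the log2 fold change was 0.86, and without the library labelled WT input 2/3 it was 1.92, neither of which passed. The 9 markers of astrocytes, which also express Aldh2, summed to 809 to 1515 CPM in KO input and 1070.1 to 1531 CPM in WT input, and their part in the Aldh2 values was not tested.

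Cyb561 averaged 19.1 ± 16.8 CPM in KO input and 30.5 ± 8.52 CPM in WT input, with a log2 fold change of -1.004 ± 0.61 (95% interval -2.30 to 0.29; edgeR adjusted p = 1.00). It was -0.56 without the library labelled WT input 2/3 and -1.50 without WT input 5. Maob had -0.81 ± 0.78, which was -0.040 without WT input 5 and -1.29 without WT input 2/3. Slc22a3 had -0.59 ± 1.04, and the other 4 genes had -0.23 to 0.32. Within runs 1 and 2 the values had opposite signs for 3 of the 8 genes: -0.21 and 0.75 for Slc6a4, 0.61 and -0.13 for Maoa, and -0.59 and 0.016 for Slc29a4. Slc22a3 had a 95% interval of -2.81 to 1.63, which includes differences of several fold in either direction. Its input libraries held 4 to 73 counts and 0.674 to 12.6 CPM, and the repeat runs of the libraries numbered 3 differed by 0.065 (KO) and 0.48 (WT) on the log2 scale.

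**Figure D5:**
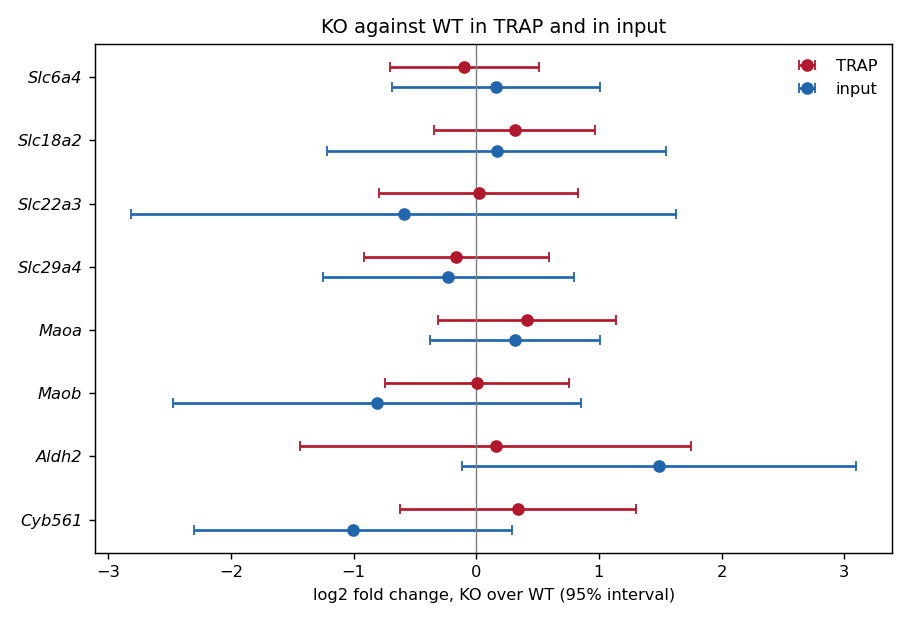
Points give the log2 fold change of KO over WT for each gene in TRAP and in input, with 95% intervals. Every interval spans 0, and for all genes but Maoa the interval is wider in input than in TRAP. In input it runs from -2.81 to 1.63 for Slc22a3. For Aldh2 the widths are nearly equal, with -1.43 to 1.75 in TRAP and -0.12 to 3.10 in input.

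Splicing was measured by the submitters as percent spliced in (PSI), the share of transcripts with an exon. Of the 8935 splicing events in each table, 1 lay in these genes, a skipped exon of 279 bases in Cyb561 at chromosome 11, 105940100-105940378 (mm10). The authors' deposited table gave it a PSI of 0.0432, 0.0121 and 0.0300 in KO TRAP libraries 1, 2 and 3, so most of the Cyb561 transcripts measured there lacked the exon. It gave no value in WT TRAP or in input, so KO and WT could not be compared. The same table marks Cyb561 as no CELF6 target by crosslinking and immunoprecipitation, and none of the 960 tandem UTR events lay in the 8 genes.

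Genes with the most similar pattern were found by the root mean square difference of centred log2 CPM over the 18 libraries, among 11347 genes. For Slc6a4 they were Gchfr (0.67), Gch1 (0.68) and Fev (0.75), where Slc6a4 itself varied with an SD of 2.78. Gch1 and Gchfr encode the enzyme that starts synthesis of the cofactor of tryptophan hydroxylase and its regulator, and Fev a transcription factor of serotonin neurons. For Slc18a2 they were Fam169a (0.75), Slc22a3 (0.79) and Ddc (0.80), and for Slc22a3 they were Slc18a2 (0.79), Slc6a4 (0.83) and Ddc (0.97). Slc18a2 and Slc22a3 were thus each in the other's list, and Ddc, which encodes the decarboxylase that makes serotonin, was in both. For Maoa they were AW551984 (0.39), Gng4 (0.40) and Mn1 (0.44), and for Maob they were Gpr4 (0.68), Peg10 (0.70) and Pcdhac2 (0.82). Maoa and Maob did not appear in each other's lists. TRAP and input libraries both enter this measure, so a shared place in a list partly restates similar fold changes of TRAP over input. Slc29a4, Aldh2 and Cyb561 had Mesdc2 (0.48), Bud13 (0.54) and Tbc1d22a (0.52) nearest, against SDs of 0.74, 0.92 and 1.00 of their own.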

How the data were processed

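Counts per gene, as deposited by the authors, were whole numbers made with featureCounts 1.4.6-p5 on mm10 exons without strand, per the file headers. Trimmomatic and STAR were used upstream, with no version, per the submitters' processing notes. RNA was amplified (Nugen Ovation 2) before library preparation (NEBNext Ultra), per the labels. PSI, a fraction from 0 to 1, came from MISO in tables the authors deposited. Exon length in bases, from the authors' deposited files, gave RPKM.

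Repeat runs and WT input 4 (labelled an outlier) were left out. The 18 remaining libraries were compared with edgeR 4.0.16 in R 4.3.3 (filterByExpr, TMM, quasi-likelihood F test, sequencing run as covariate, Benjamini-Hochberg adjustment over all genes, threshold 0.05). TRAP against input was the mean of the KO and WT differences, while KO against WT was fitted within TRAP and within input. CPM are TMM-normalized, and log2 CPM has a prior count of 2. Ratios and level orders used exact permutation tests (scipy 1.17.1). The splits of libraries for ratios did not keep to sequencing runs, genotype or pairs from the same brain. Ratios within each sequencing run were added after seeing the data. DESeq2 1.42.0 and other settings were alternatives, and the edgeR fits were tested on simulated data.

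TRAP and input with the same number come from the same brain per the series design, so the replicate number entered as a block in an alternative. Residuals of such pairs had r of -0.204 to 0.0566 in KO and -0.171 to -0.00312 in WT, with 1 of 5 and 0 of 4 closest to their own number. Sex-linked RNA differed within the pairs KO 1 and WT 5. Kdm5d had 17.4 CPM in KO TRAP 1 and 0 CPM in KO input 1. Xist had 0.475 CPM in WT TRAP 5 and 37.0 CPM in WT input 5. In the other pairs the same kind of sex-linked RNA predominated in both libraries, and the cause was not tested. Replicate libraries are separate brains per the design.

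The 8 genes and all lists were chosen with earlier results of these data known. All 8 are named throughout, and from each list at most the 3 genes with the smallest p in TRAP against input. The planned PSI comparison could not be made. Sequences are from RefSeq.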

Additional observations from a re-analysis of the deposited data

Results flagged for a closer look

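In groups of 5 libraries, 3 of the 24 combinations of gene and group held 1 library far from the other 4. The rule was the Dixon ratio, the gap to the nearest library as a share of the range, taken on CPM. It flags about 1 in 20 by chance if values are normally distributed, which was not tested for CPM. The rule was not repeated on log2 CPM, where the flags could differ. Maob had 165 CPM in WT TRAP 2, against 72.9 to 98.4 CPM in the other WT TRAP libraries. Aldh2 had 8.59 CPM in KO input 2, against 20.3 to 23.6 CPM in the other KO input libraries. Cyb561 had 48.5 CPM in KO input 5, against 6.55 to 15.8 CPM in the other KO input libraries, and KO input 5 also held the highest Slc29a4 level (159 CPM).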

How the results depend on the processing

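Slc6a4, Slc18a2, Slc22a3, Maoa and Maob stayed higher in TRAP than in input, with an edgeR or DESeq2 adjusted p below 0.05, in all 27 alternatives. Counts of genes called moved more. For TRAP against input (673), DESeq2 gave 1290, no expression filter 1065, and leaving out the 2 libraries with mixed sex-linked RNA, an alternative chosen after seeing the data, 337. Leaving out 1 library gave 346 to 831. Within KO (177) DESeq2 gave 668, no filter 488, and leaving out 1 library 122 to 338. Within WT (95) DESeq2 gave 315, no filter 237, WT input 2 and 3 kept apart 182, and leaving out 1 library 29 to 133. For the interaction DESeq2 and no filter gave 3 each. KO against WT gave 1 (DESeq2) and 16 (no filter) in TRAP, and 4 (no filter) and 0 to 1 (1 library left out) in input. With the replicate number as a block, 540, 243 and 73 genes passed in TRAP against input, within KO and within WT. The interaction then had 0. For KO against WT the block joined KO and WT libraries that share a number but not a brain, and 0 genes passed. The block changed no call of the 8 genes.

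Beside the values within each sequencing run, which stand with the results, uncalled values turned sign as follows, and the cause was not tested. Aldh2 within WT was -0.085 with WT input 2 and 3 apart. In the interaction, Slc6a4 was 0.076 with the block, Slc29a4 -0.083 with library totals, -0.15 without the run term, -0.078 with WT input 2 and 3 apart and -0.097 with repeat runs, and Maoa -0.000247, -0.027 and -0.031 in the first 3 of these. For KO against WT in TRAP, Slc22a3 was -0.091 with library totals and -0.10 with the block, and Maob -0.081, -0.00834 and, in the joint fit, -0.016. Slc18a2 in input was -0.10 with the block. Leaving out 1 library gave these ranges. KO against WT in TRAP was -0.36 to 0.51 for Aldh2, -0.19 to 0.58 for Cyb561, -0.19 to 0.24 for Maob, -0.52 to 0.27 for Slc22a3, -0.37 to 0.019 for Slc29a4 and -0.32 to 0.10 for Slc6a4. In input it was -0.091 to 0.37 for Slc18a2, -0.58 to 0.14 for Slc29a4 and -0.14 to 0.49 for Slc6a4. The interaction was -0.15 to 0.37 for Maoa, -0.030 to 1.19 for Slc22a3 and -0.24 to 0.43 for Slc29a4, and Aldh2 within WT was -0.47 to 0.63. Within KO, TRAP minus input for Slc29a4 was 0.86 in run 1 and -0.36 in run 2. Input libraries held 4 to 73 counts of Slc22a3, 9 to 133 of Maob and 8 to 140 of Aldh2, whose repeat runs in KO and WT input differed by 0.065 and 0.48, by 0.43 and -0.10 and by 0.12 and 0.0092 on the log2 scale. Alternatives for PSI were not run, since no event in the 8 genes had values in both genotypes.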

Other observations

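The 4 libraries numbered 3 were sequenced again in run 2. The log2 ratio of run 2 to run 1 for the 8 genes was -0.53 to 0.56, with a median size of 0.14. The group SDs of these genes between libraries had a median of 0.67 in TRAP and 0.75 in input on the log2 scale.

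WT input 4, labelled an outlier and not used, held 325072 counts. It gave 43 counts for Slc6a4, 61 for Slc29a4, 12 for Cyb561 and 5 or fewer for each of the other 5 genes.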
